A study of Mus musculus with 12 samples.

Results

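The genes described here encode 10 secreted modulators of Wnt signalling: the agonists Rspo2 and Rspo3, and Sostdc1, Dkk2, Dkk3, Sfrp1, Sfrp2, Sfrp4, Frzb and Wif1, most of which are known as antagonists. They were taken by symbol from the probe sets that the platform annotation gives to a single gene, and they are 10 of the 19938 genes measured that way. Each of the 10 had 1 probe set. RNA came from mouse embryonic fibroblasts of an OG2 by 129/sv cross (OG2 mice carry a green fluorescent protein reporter under Oct4 control) that had been infected with virus, kept in embryonic stem cell medium, and freed of feeder cells before extraction. In 6 cultures the fibroblasts had received SKO together with microRNA cluster C, microRNA cluster B or a blank control virus, and were lysed at day 8 or day 4 after the first infection. In 6 others they had received cluster C, cluster B or blank virus without SKO, and were lysed on the same days. The labels do not spell SKO out and call it the process that makes induced pluripotent stem cells; here it is read as Oct4, Sox2 and Klf4.

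Wnt proteins signal by binding Frizzled receptors together with the co-receptors Lrp5 and Lrp6, which stabilises beta-catenin and turns on genes through Tcf and Lef factors. Secreted Frizzled-related proteins (Sfrp1, Sfrp2, Sfrp4 and Frzb) and Wif1 bind Wnt proteins outside the cell, and Dickkopf proteins such as Dkk2 and the sclerostin-domain protein Sostdc1 bind the Lrp co-receptors. R-spondins act the other way: through the receptors Lgr4, Lgr5 and Lgr6 they hold back the ubiquitin ligases Rnf43 and Znrf3, which remove Frizzled from the cell surface. In fibroblasts these secreted proteins are part of positional and matrix programs, and Wnt signalling is known to influence how readily cells are reprogrammed.

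There was 1 array for each of the 12 cultures, and none of these conditions was repeated. Values are deposited log2 expression values, which have no unit and can be compared between arrays for the same gene but not between genes. Array medians lay between 4.98 and 5.07, and lower quartiles between 3.48 and 3.68. Errors given as SE come from 1 limma fit over all 12 arrays and all genes, whose spread is set by how far virus effects varied between the days. A gene was called when its Benjamini-Hochberg adjusted p, over all 19938 genes, was under 0.05. Nothing in the labels says that arrays came from separate experiments, so p-values measure only the spread between these arrays. All titles of arrays without SKO carry the tag Group2, so differences between the arms and between these groups cannot be told apart. As a check of the labels, Pou5f1 (Oct4) was no lower than 11.60 with SKO and at 3.35 to 4.56 without, Klf4 at 8.63 to 8.91 against 6.92 to 7.16, and Sox2 at 5.34 to 7.55 against 4.55 to 5.18. Sox2 did not pass at day 4 (0.76 ± 0.30, adjusted p = 0.116). RNA was taken from whole cultures, so fewer cells that express a gene and less RNA per cell cannot be told apart.

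**Figure D1:**
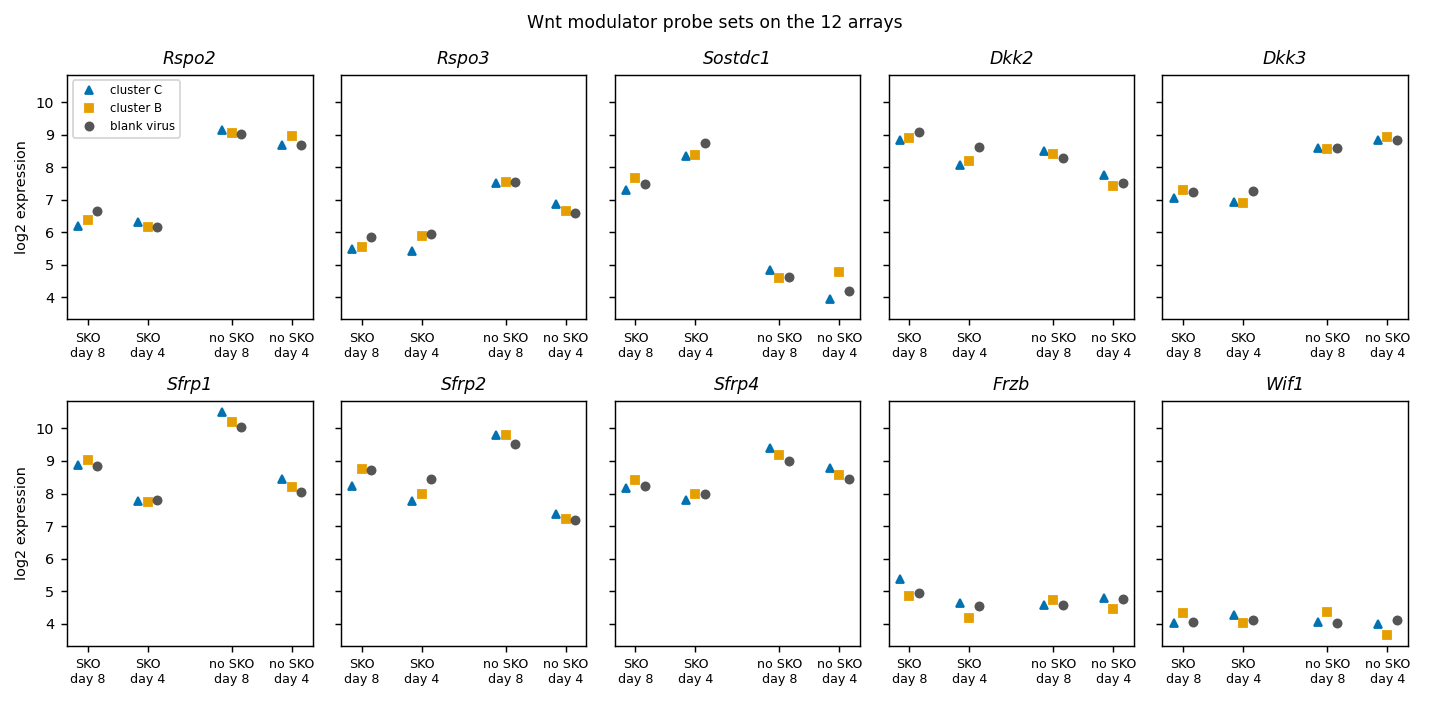
Log2 expression of each Wnt modulator on the 12 arrays, with SKO at the left and without SKO at the right of each panel and day 8 left of day 4, 1 point per array. Sostdc1 lay at 7.31 or above on all arrays with SKO and at 4.84 or below on those without, Rspo2 showed the opposite order, and Wif1 stayed between 3.67 and 4.37.

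With SKO, the R-spondins, Dkk3, Sfrp1 and Sfrp4 were lower than without SKO on both days, Sostdc1 and Dkk2 were higher on both days, and Sfrp2 was higher at day 4 and lower at day 8. At day 8, 3 of the 10 were called higher and 6 lower, where 26.1% of all genes were called in either direction (13.4% higher and 12.7% lower). At day 4, 3 were called higher and 5 lower, against 18.9% of all genes in either direction (9.52% higher and 9.4% lower). The median log2 difference of the 10 was -1.03 at day 8 and -0.34 at day 4, against -0.07 and -0.04 over all genes. At day 8 the 3 arrays with SKO did not overlap the 3 without in 9 of the 10 genes, as in 44.9% of all genes, and at day 4 in 8 of the 10, as in 33.7% of all genes. Both comparisons use the same fit but different arrays.

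Rspo2, the R-spondin best known from limb and lung development (chromosome 15, 43020788 to 43171594, GRCm38.p6), fell by the largest amount of the 10. At day 8 it was at 6.21, 6.39 and 6.66 with SKO and cluster C, cluster B and blank virus, against 9.14, 9.06 and 9.01 without SKO in the same order of viruses. At day 4 it was at 6.30, 6.16 and 6.17 with SKO, against 8.68, 8.96 and 8.69 without. Every array with SKO lay more than 2 log2 units below every array without SKO. The difference was -2.65 ± 0.13 at day 8 (SE, 3 arrays against 3, limma adjusted p = 1.78e-06) and -2.57 ± 0.13 at day 4 (adjusted p = 3.77e-06), a 6.29-fold and a 5.92-fold lower level. At day 4 only 4 of the 19938 genes had a lower difference, and at day 8 it ranked 17 from the lowest.

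Rspo3, the R-spondin of vascular and placental development (chromosome 10, 29453106 to 29535867), was lower too, by an amount that differed between the days. At day 8 it was at 5.50, 5.55 and 5.84 with SKO, against 7.53, 7.56 and 7.53 without. Its day 4 values were 5.42, 5.88 and 5.94 with SKO, against 6.86, 6.65 and 6.59 without. Its level on arrays with SKO was similar on both days, and the arrays without SKO were higher at day 8 than at day 4. The difference was -1.91 ± 0.11 at day 8 (adjusted p = 4.41e-06) and -0.95 ± 0.11 at day 4 (adjusted p = 0.000451).

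Sostdc1, also called Wise or ectodin, an antagonist of both bone morphogenetic protein and Wnt signalling (chromosome 12, 36314169 to 36318452), rose the most. At day 8 it was at 7.31, 7.66 and 7.49 with SKO and cluster C, cluster B and blank virus, against 4.84, 4.60 and 4.63 without SKO. The day 4 values were 8.36, 8.37 and 8.74 with SKO, against 3.95, 4.77 and 4.21 without. The groups stood apart on both days, and all 6 values without SKO were under the median of their own array. The difference was 2.80 ± 0.19 at day 8 (adjusted p = 8.29e-06) and 4.18 ± 0.19 at day 4 (adjusted p = 1.98e-06). The files used here hold no detection call, so whether the level without SKO was above background, and with it the size of these differences, is uncertain.

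The Dickkopf genes went opposite ways. Dkk3, a divergent member of the family whose role in Wnt signalling is less settled (chromosome 7, 112116019 to 112159482), was at 7.05, 7.31 and 7.24 with SKO at day 8, against 8.60, 8.55 and 8.60 without. Its level at day 4 was 6.93, 6.89 and 7.28 with SKO, against 8.84, 8.93 and 8.82 without. The groups stood apart on both days, with differences of -1.38 ± 0.11 at day 8 (adjusted p = 2.86e-05) and -1.83 ± 0.11 at day 4 (adjusted p = 1.26e-05). Dkk2, which binds Lrp5 and Lrp6 (chromosome 3, 132085266 to 132180304), was at 8.83, 8.89 and 9.09 with SKO at day 8, against 8.50, 8.42 and 8.29 without. At day 4 it was at 8.08, 8.19 and 8.62 with SKO, against 7.77, 7.43 and 7.51 without. It was higher with SKO in each of the 6 pairs of arrays that share virus and day, by 0.53 ± 0.11 at day 8 (adjusted p = 0.00616) and by 0.73 ± 0.11 at day 4 (adjusted p = 0.00143).

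Of the secreted Frizzled-related proteins, Sfrp1 (chromosome 8, 23411383 to 23449632) and Sfrp4 (chromosome 13, 19623175 to 19632825) were lower with SKO on both days. Sfrp1 was at 8.86, 9.02 and 8.85 with SKO at day 8, against 10.51, 10.19 and 10.03 without. Its day 4 levels were 7.76, 7.73 and 7.82 with SKO, against 8.45, 8.19 and 8.06 without. The gap was wider at day 8 (-1.33 ± 0.10, adjusted p = 1.55e-05) than at day 4 (-0.47 ± 0.10, adjusted p = 0.0103). Leaving out 1 of 3 day 4 arrays ended the day 4 call: cluster B with SKO (adjusted p = 0.0823), blank virus without SKO (0.0534) or cluster B without SKO (0.0515). Sfrp4 was at 8.17, 8.43 and 8.24 with SKO at day 8, against 9.39, 9.19 and 9.004 without, and at 7.81, 8.00 and 8.00 with SKO at day 4, against 8.77, 8.57 and 8.45 without. Its differences were -0.92 ± 0.10 (adjusted p = 0.000124) and -0.66 ± 0.10 (adjusted p = 0.0013).

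Sfrp2 (chromosome 3, 83765750 to 83774314) was the only one of the 10 called in opposite directions on the 2 days. At day 8 it was at 8.22, 8.74 and 8.71 with SKO and cluster C, cluster B and blank virus, against 9.78, 9.79 and 9.53 without. At day 4 it was at 7.76, 7.98 and 8.45 with SKO, against 7.38, 7.22 and 7.20 without. The arrays with SKO were all lower at day 8 and all higher at day 4, with no overlap on either day. The difference was -1.14 ± 0.12 at day 8 (adjusted p = 0.000119) and 0.80 ± 0.12 at day 4 (adjusted p = 0.00147).

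Frzb, the fourth Frizzled-related gene (chromosome 2, 80411970 to 80447396), lay under the array median on 11 of 12 arrays. At day 8 it was at 5.38, 4.86 and 4.96 with SKO, against 4.57, 4.73 and 4.59 without, a difference of 0.43 ± 0.13 (adjusted p = 0.0373). Leaving out 1 of 6 arrays ended that call. With SKO these were the day 8 arrays of cluster C (adjusted p = 0.174), cluster B (0.13) and blank virus (0.0582) and the day 4 array of cluster B (0.0524), and without SKO the day 8 arrays of cluster C (0.187) and blank virus (0.176). At day 4 it was at 4.63, 4.17 and 4.55 with SKO, against 4.79, 4.44 and 4.78 without, and the groups overlapped (-0.22 ± 0.13, adjusted p = 0.303). Wif1, the Wnt inhibitory factor (chromosome 10, 121034004 to 121100642), lay under the array median on all 12 arrays, between 3.67 and 4.37. Its differences of -0.02 ± 0.17 at day 8 and 0.22 ± 0.17 at day 4 did not pass, and the groups overlapped on both days.

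**Figure D2:**
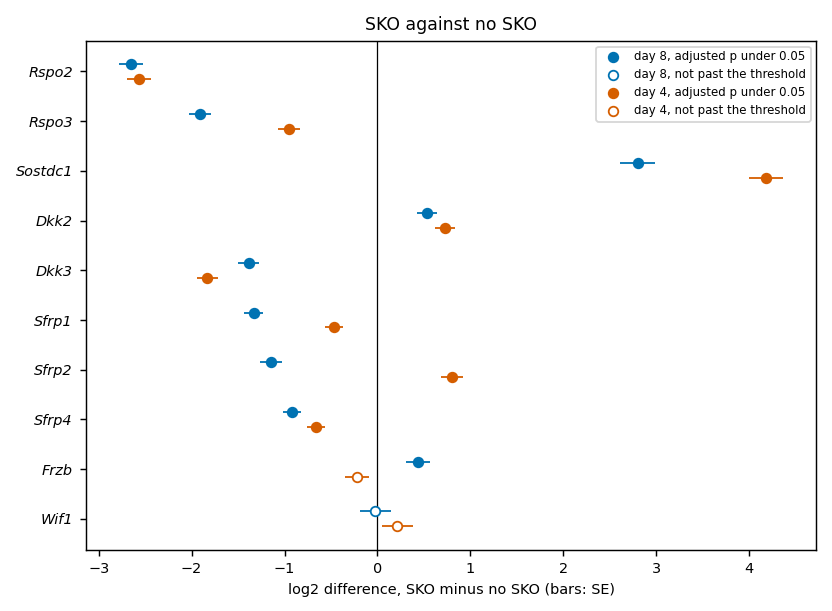
Log2 difference of each gene between arrays with SKO and without SKO, at day 8 and day 4, as the mean over the 3 viruses; bars are SE of the limma fit and filled points passed an adjusted p of 0.05. Sostdc1 lies far right (2.80 and 4.18), Rspo2 far left (-2.65 and -2.57), and the Sfrp2 points lie on opposite sides of 0.

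The RefSeq promoter table (GRCm38.p6) held 4 of the 10 genes: Dkk2, Sfrp2, Frzb and Wif1. The 250 bases before the transcript start used by that table are shown for Sfrp2 and Dkk2, since these were called higher with SKO at day 4 and, as described next, also rose over time in both arms. Both genes lie on the plus strand. The table's start is 571 bases inside the Sfrp2 span given above, so the whole Sfrp2 window lies within that span, and it is 26 bases inside the Dkk2 span. Capitals mark the matches, on either strand, to 4 short motifs: CTTTGA for Tcf and Lef factors, TGCAAAT for the octamer, CATTGT for Sox factors and CCACCC for Klf factors.
Sfrp2, chr3:83766071-83766320, plus strand: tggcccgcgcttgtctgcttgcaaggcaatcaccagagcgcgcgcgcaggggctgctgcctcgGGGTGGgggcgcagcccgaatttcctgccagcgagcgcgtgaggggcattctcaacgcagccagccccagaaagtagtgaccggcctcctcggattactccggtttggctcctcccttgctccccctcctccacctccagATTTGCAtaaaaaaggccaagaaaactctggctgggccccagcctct
Dkk2, chr3:132085042-132085291, plus strand: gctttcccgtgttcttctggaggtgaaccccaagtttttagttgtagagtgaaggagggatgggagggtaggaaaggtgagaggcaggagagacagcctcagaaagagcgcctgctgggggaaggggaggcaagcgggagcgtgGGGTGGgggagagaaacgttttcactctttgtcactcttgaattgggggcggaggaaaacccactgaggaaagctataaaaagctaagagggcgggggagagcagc
Both windows hold 1 match to the Klf motif, read on the minus strand. At least 1 match on either strand is found in 28.1% of the 32851 windows of this length in the table. The shares given below for other motifs are counted the same way. GC content was 63.6% in the Sfrp2 window and 55.6% in the Dkk2 window, against a median of 52.4% over all windows. The Sfrp2 window also holds 1 octamer match (3.6% of windows), 47 to 41 bases before the table's start. In the windows not shown, Frzb has 1 Klf match and 1 Tcf/Lef match (13.8% of windows) and Wif1 has none. No Sox match (10.7% of windows) was found in the 4 windows, and no match overlapped another. A match describes these letters and is not evidence of binding.

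Between the days, Sfrp1, Sfrp2 and Sfrp4 were higher at day 8 than at day 4 without SKO, and Sfrp1 and Sfrp2 changed less with SKO. Without SKO, 5 of the 10 were called higher at day 8 than at day 4 and 0 lower, where 8.68% of all genes were called in either direction (4.05% higher). With SKO, 4 were called higher and 1 lower, where 8.9% of all genes were called (5.24% higher and 3.66% lower). The median log2 difference of the 10 was 0.27 with SKO and 0.49 without, against -0.01 and 0.01 over all genes. The day 8 and day 4 arrays did not overlap in 5 of the 10 with SKO, as in 28.2% of all genes, and in 7 of the 10 without, as in 30.1% of all genes.

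Without SKO, Sfrp2 rose by 2.44 ± 0.12 (adjusted p = 1.66e-05), a 5.41-fold increase that ranked 11 from the top of all genes. Its day 8 values of 9.78, 9.79 and 9.53 stood far above the day 4 values of 7.38, 7.22 and 7.20. Sfrp1 rose by 2.01 ± 0.10 (adjusted p = 1.67e-05), which ranked 19. Rspo3 (0.84 ± 0.11, adjusted p = 0.00366), Dkk2 (0.83 ± 0.11, adjusted p = 0.00285) and Sfrp4 (0.60 ± 0.10, adjusted p = 0.00748) rose as well. The Sfrp4 call was lost without the array of cluster C and no SKO at either day (adjusted p = 0.0538). Rspo2 (0.29), Sostdc1 (0.38), Wif1 (0.22), Frzb (-0.04) and Dkk3 (-0.28) did not pass.

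With SKO, Sfrp1 rose by 1.14 ± 0.10 (adjusted p = 0.000303), to 8.85 to 9.02 at day 8, against 7.73 to 7.82 at day 4, and this was the only day change with SKO whose call was kept in all 12 fits that left out 1 array. Dkk2 rose by 0.63 ± 0.11 (adjusted p = 0.00784), a call lost without any array of SKO with cluster B (0.0602) or cluster C (0.0511). Frzb rose by 0.62 ± 0.13 (adjusted p = 0.0206), a call lost without any 1 of the 6 arrays with SKO (0.0541 to 0.112). Sfrp2 rose by 0.49 ± 0.12 (adjusted p = 0.035), with day 8 values of 8.22 to 8.74 that overlapped day 4 values of 7.76 to 8.45, and the call was lost without any of the 6 arrays with SKO (0.0643 to 0.186) or either array of cluster C without SKO (0.0585). Sfrp4 differed by 0.34 ± 0.10 (adjusted p = 0.059). Sostdc1 fell by 1.0008 ± 0.19 (adjusted p = 0.0122), that is 2-fold, to 7.31 to 7.66 at day 8, against 8.36 to 8.74 at day 4, and this call was lost without any array of SKO with blank virus (0.0889) or cluster C (0.0641). Rspo2 (0.21), Dkk3 (0.17), Rspo3 (-0.12) and Wif1 (-0.02) did not pass.

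**Figure D3:**
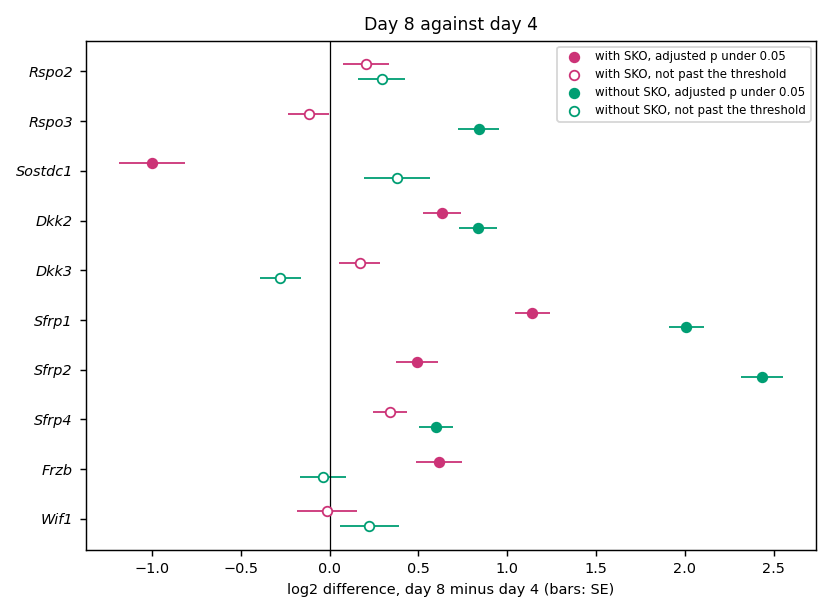
Log2 difference of each gene between day 8 and day 4, with SKO and without SKO, as the mean over the 3 viruses; bars are SE of the limma fit and filled points passed an adjusted p of 0.05. Sfrp2 and Sfrp1 lie farthest right without SKO (2.44 and 2.01), and Sostdc1 with SKO is the only filled point left of 0 (-1.0008).

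The difference between the day changes was tested as an interaction, and 4 of the 10 were called, all with a lower day change with SKO than without, where 2.97% of all genes were called (1.97% higher and 1% lower). Sfrp2 differed by -1.95 ± 0.17 (adjusted p = 0.00075) and ranked 7 from the lowest of all genes, and its call was kept in all 12 fits that left out 1 array, with values from -2.08 to -1.83. Rspo3 differed by -0.96 ± 0.16 (adjusted p = 0.0176), a call lost without any array of blank virus or cluster B in either arm (0.0608 to 0.065). Sfrp1 differed by -0.87 ± 0.14 (adjusted p = 0.0143), a call lost without any array of SKO with blank virus (0.0682) or of cluster C in either arm (0.0549 with SKO and 0.0626 without). Sostdc1 differed by -1.38 ± 0.26 (adjusted p = 0.029), a call lost without any array other than the pair of cluster B without SKO (0.0508 to 0.103). Frzb (0.65 ± 0.18, adjusted p = 0.104), Dkk3 (0.45), Rspo2 (-0.09), Dkk2 (-0.20), Wif1 (-0.24) and Sfrp4 (-0.26) did not pass.

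Neither microRNA cluster changed any of the 10 past the threshold, with or without SKO. With SKO, 0 of 10 were called for cluster C against blank virus (0.0201% of all genes called), for cluster B against blank virus (0.01%) or for cluster C against cluster B (0.0201%) by limma. At an unadjusted p under 0.05 there were 3, 1 and 2 of the 10, against 6.82%, 3.08% and 5.53% of all genes. Without SKO, the counts were 0 of 10 for each of these comparisons (0% of all genes), with 2, 0 and 1 at an unadjusted p under 0.05, against 4.72%, 5.86% and 6.32% of all genes. The SE of these differences was 0.12 to 0.23. With SKO, 8 of 10 differences between cluster C and blank virus were below 0, with a median of -0.21, against -0.01 over all genes. The 10 differences come from the same arrays, so their signs are not independent. Sfrp2 differed by -0.59 ± 0.145 (adjusted p = 0.641), Rspo3 by -0.43 ± 0.14 (0.687) and Dkk2 by -0.40 ± 0.13 (0.687). Between single arrays, Sfrp2 with cluster C was below blank virus by -0.50 at day 8 and -0.68 at day 4, Rspo3 by -0.35 and -0.52, and Dkk2 by -0.26 and -0.54. With cluster B, Dkk2 differed by -0.31 ± 0.13 (adjusted p = 0.9999), and in the comparison of cluster C with cluster B, Sfrp2 differed by -0.37 (0.876) and Frzb by 0.49 (0.867). Clusters C and B share the blank virus arrays. Without SKO, 8 of 10 differences between cluster C and blank virus were above 0, with a median of 0.096, against -0.002 over all genes. These signs are not independent either. The largest were Sfrp1 (0.43 ± 0.12, adjusted p = 0.9997) and Sfrp4 (0.36 ± 0.12, adjusted p = 0.9997). Sfrp1 was also higher by 0.29 with cluster C than with cluster B (0.781).

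Whether a cluster's effect differed between the arms was tested too. For cluster C, 0 of 10 were called (0% of all genes), 5 had an unadjusted p under 0.05 (5.79% of all genes), and the lowest values were for Sfrp2 (-0.81 ± 0.205, adjusted p = 0.759) and Dkk2 (-0.64 ± 0.185, adjusted p = 0.824), followed by Rspo3 (-0.56), Sfrp4 (-0.49) and Sfrp1 (-0.45). For cluster B, 0 of 10 were called (0% of all genes) and 0 had an unadjusted p under 0.05 (5.2% of all genes), with differences from -0.37 to 0.16.

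**Figure D4:**
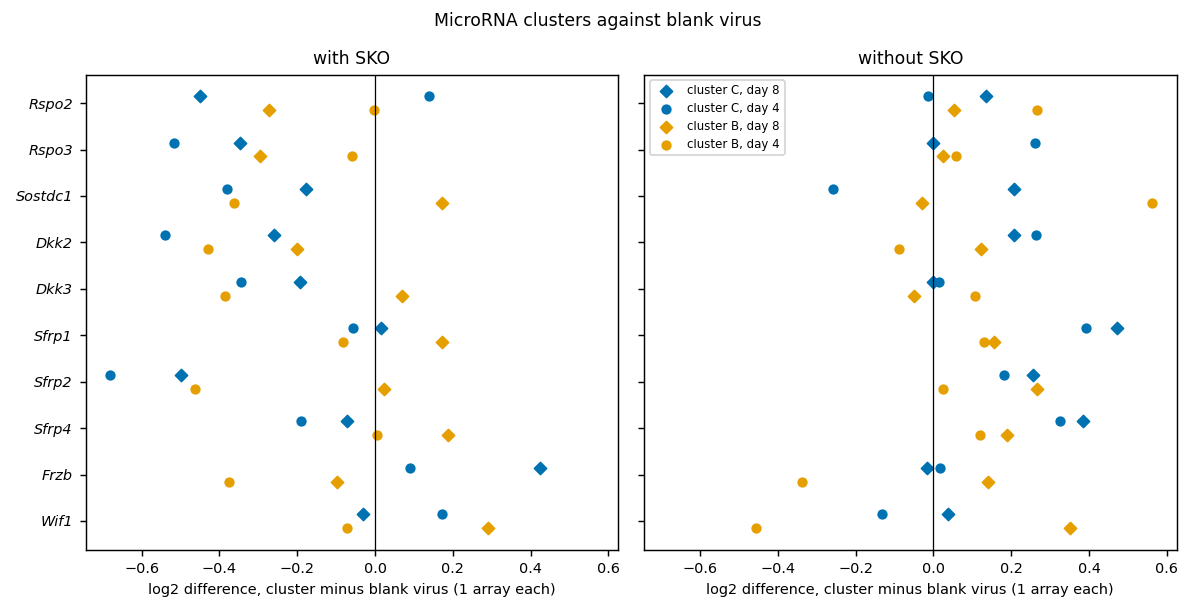
Log2 difference of each gene between cluster C or cluster B and blank virus, each point 1 array against 1 array of the same day, with SKO at the left and without SKO at the right. With SKO, the cluster C points of Sfrp2 (-0.50 and -0.68), Rspo3 (-0.35 and -0.52) and Dkk2 (-0.26 and -0.54) lie left of 0 on both days. The single points were not tested, and no mean over both days passed the threshold.

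Other genes of the pathway were read from lists chosen by role. Over all genes, 13.4% were called higher and 12.7% lower with SKO at day 8, and 9.52% and 9.4% at day 4. These shares stand beside the SKO counts of each list. Among 17 genes listed as other secreted modulators, 3 were called higher and 7 lower with SKO at day 8, and 3 and 4 at day 4. The median differences were -0.29 and -0.17. Not all of the 17 encode secreted proteins, since Porcn, Gpc3, Gpc4 and Sdc1 are membrane proteins. Igfbp4, which binds insulin-like growth factors and is reported to bind Lrp6, was lower at day 8 (-1.88 ± 0.11) and did not pass at day 4 (-0.28 ± 0.11). The glypican Gpc3 (-1.82 at day 8 and -1.95 at day 4) and the proteoglycan Bgn (-0.79 and -0.82) were lower on both days. Porcn, which acylates Wnt proteins for secretion (1.04 and 0.41), Notum, which removes that acyl group (0.53 and 0.62), and Dkkl1 (0.91 and 0.48) were higher on both. The day 4 calls of Dkkl1 and Porcn were lost in 9 and 4 of the 12 fits that left out 1 array (adjusted p up to 0.245). Without SKO, Dkkl1 lay at 4.3 to 4.93, under every array median.

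Of 19 Wnt ligands, 1 was called higher and 8 lower with SKO at day 8, and 1 and 1 at day 4 (medians of -0.33 and -0.21). Wnt2 was higher on both days (1.01 ± 0.10 and 1.38 ± 0.10), and Wnt16 was lower on both (-1.09 ± 0.15 and -0.96 ± 0.15). Wnt10a was lower at day 8 (-0.84), and did not pass at day 4 (-0.60, adjusted p = 0.0623). The day 8 call was lost in 3 of the 12 fits that left out 1 array (adjusted p up to 0.0883). With SKO, Wnt16 lay at 4.13 to 5 and Wnt10a at 4.62 to 5.37, near or under the array medians. Without SKO, Wnt2 lay at 4.61 to 5.77. The size of the differences of these 3 ligands is therefore uncertain. Of 24 receptors and co-receptors, 7 were higher and 9 lower at day 8, and 3 and 7 at day 4 (medians of -0.215 and -0.16). The R-spondin receptors were among both: Lgr4 was higher (0.76 and 0.99 at days 8 and 4), and Lgr5 was lower at day 8 (-1.83 ± 0.13, adjusted p = 1.12e-05) and did not pass at day 4 (-0.21 ± 0.13). The Frizzled gene Fzd5 was higher on both days (0.87 and 1.03), and the Wnt5a receptor Ror1 (-1.06 and -0.90) and Fzd2 (-0.76 and -0.81) were lower on both.

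Among 33 measured genes listed under intracellular signalling, 8 were higher and 4 lower with SKO at day 8, and 4 and 5 at day 4. Their medians were -0.03 and 0.001. Over all genes, 13.4% were higher and 12.7% lower at day 8, and 9.52% and 9.4% at day 4. Celsr1 (1.46 and 0.95), the co-repressor Tle4 (1.47 and 0.51) and the transcription factor Lef1 (0.65 and 1.11) were higher on both days. Celsr1, of planar cell polarity, encodes a cell-surface protein although it is in this list. Prickle1, also of planar cell polarity (-0.73 and -0.89), and the co-repressor Tle2 (-0.49 and -0.73) were lower on both. Pygo1 was lower at day 8 (-0.62) and did not pass at day 4 (-0.36). Some of these levels were under every array median, so the size of the differences is uncertain. They were Lef1 (4.08 to 4.79) and Celsr1 (4.41 to 4.92) without SKO, and Pygo1 on all 12 arrays (3.76 to 4.9). Leaving out 1 array ended the day 8 call of Pygo1 in 6 of 12 fits, of Lef1 in 2 and of Tle2 in 1, and the day 4 call of Tle4 in 5 (adjusted p up to 0.216). Of 24 measured genes reported as beta-catenin targets, 5 were higher and 11 lower at day 8, and 6 and 5 at day 4 (medians of -0.32 and -0.009). Apcdd1, itself a membrane-bound Wnt inhibitor, was the highest (2.78 ± 0.10 and 2.07 ± 0.10). The cyclin gene Ccnd1 (0.92 and 1.51) and Myc (0.60 and 1.51) were higher on both days, and Sox9 (-1.34 and -0.76) and Ccn4 (-1.23 and -0.92) were lower on both. Axin2, a widely used readout of beta-catenin activity, did not pass at day 8 or day 4 (0.37 ± 0.18, adjusted p = 0.16, and 0.31 ± 0.18, adjusted p = 0.287). Its level was near the array medians, at 4.58 to 5.35. Leaving out each array in turn moved the list counts too. At day 8 the ligands called lower were 3 to 9 and higher 1 to 2, the receptors called higher 3 to 7, the intracellular genes called higher 4 to 8 and lower 2 to 4, and the targets called lower 6 to 11. At day 4 the ligands called lower were 1 to 3, the receptors called lower 4 to 8, the other secreted modulators called higher 1 to 3, the intracellular genes called lower 3 to 6, and the targets called lower 3 to 6.

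Between the days, 4 of the 24 reported targets were called higher and 2 lower with SKO (median 0.05). Without SKO, 11 were called higher and 0 lower (median 0.26). Over all genes, 5.24% were called higher and 3.66% lower with SKO, and 4.05% and 4.63% without. Lgr5 did not pass with SKO (0.32 ± 0.13) and rose without (1.94 ± 0.13), and Id2 did likewise (0.61 ± 0.165 with SKO, adjusted p = 0.0529, and 1.31 ± 0.165 without). Notum rose in both arms (0.65 with SKO and 0.73 without). Apcdd1 rose with SKO (0.65, against -0.07 without), Ccnd1 fell with SKO (-0.42, against 0.16 without), and Fst fell with SKO (-0.39) and rose without (1.08). Of the ligands, 0 rose with SKO and 4 without, and 0 fell in either arm. The largest rises without SKO were those of Wnt16 (0.49 with SKO, adjusted p = 0.0839, and 0.62 without) and Wnt2 (0.24 with SKO and 0.61 without).

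Of the 17 genes listed as other secreted modulators, 5 rose and 2 fell with SKO, and 5 rose and 1 fell without. The shares over all genes given above stand beside each of these lists. Igfbp4 rose in both arms, by 1.01 ± 0.11 with SKO and 2.61 ± 0.11 without, as did Porcn (1.28 and 0.65). Draxin did not pass with SKO (0.02) and rose without (0.75). Gpc4 fell in both arms (-0.82 with SKO and -0.76 without), and Sdc1 fell with SKO (-0.39, against -0.06 without). Of 24 receptors, 0 rose and 1 fell with SKO, and 3 rose and 2 fell without. Fzd3 fell in both arms (-0.59 with SKO and -0.74 without). Fzd8 did not pass with SKO (0.21) and rose without (0.80), and Fzd6 did not pass with SKO (0.04) and fell without (-0.94). Of the intracellular genes, 1 rose and 1 fell with SKO, and 0 rose and 3 fell without. Tle4 rose with SKO (0.57, against -0.40 without), Bcl9 fell in both arms (-0.42 with SKO and -0.44 without), and Gsk3b and Tle1 did not pass with SKO (-0.32 each) and fell without (-0.50 and -0.45).

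By the interaction test, the day change with SKO was lower than without for Lgr5 (-1.62 ± 0.18, adjusted p = 0.00278), Igfbp4 (-1.60 ± 0.15, adjusted p = 0.00136), Fst (-1.47 ± 0.14, adjusted p = 0.00136) and Myc (-0.91), and higher for Fzd6 (0.98), Tle4 (0.97) and Apcdd1 (0.71). The other pathway genes named above did not pass. Leaving out 1 array ended this call in 12 of 12 fits for Apcdd1 and in 10 for Fzd6, Myc and Tle4 (adjusted p from 0.0582 to 0.11).

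Many of these day calls were lost when 1 of the 12 arrays was left out. With SKO this held in 12 fits for Fst and Sdc1, 8 for Bcl9 and Ccnd1, 6 for Fzd3 and 4 for Tle4. Without SKO it held in 8 fits for Wnt16 and Bcl9, 6 for Gsk3b and Tle1, 4 for Draxin and Fzd3 and 2 for Gpc4, Porcn and Wnt2 (adjusted p from 0.0502 to 0.257 over both arms). With SKO, the other secreted modulators called lower were then 1 in every fit, the targets 2 to 5 higher and 0 to 1 lower, and the receptors called lower and the intracellular genes called in each direction 0 to 1. Without SKO, the targets called higher were 7 to 10, the ligands 0 to 3, the other secreted modulators 2 to 5 higher and 0 to 1 lower, the receptors 2 to 5 higher and 1 to 2 lower, and the intracellular genes 0 to 3 lower.

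**Figure D5:**
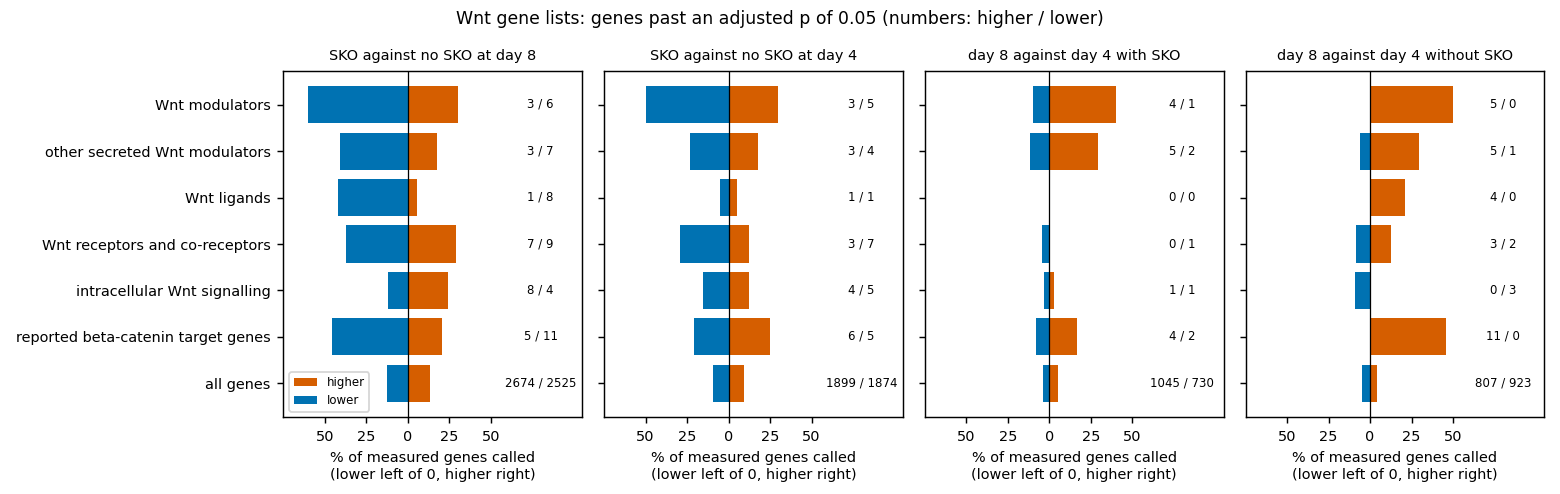
Percent of the measured genes of each Wnt list called higher (right of 0) or lower (left of 0) in 4 comparisons, with all genes at the bottom and the counts called higher and lower written at the right of each panel. Of the 10 Wnt modulators, 3 were higher and 6 lower with SKO at day 8, and of the reported target genes 11 were higher at day 8 than at day 4 without SKO.

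Genes whose pattern lay closest to the 3 most variable modulators were found by the mean absolute difference of log2 values, each gene centred on its mean over the 12 arrays. Closest to Sostdc1 were Mfsd6 (0.28), Fam110c (0.29) and the integrin gene Itgb4 (0.41). Closest to Rspo2 were the growth factor gene Hgf (0.17), Tmem26 (0.19) and the chemokine gene Cxcl12 (0.21). Closest to Sfrp1 were Fxyd1 (0.185), the lipoprotein lipase gene Lpl (0.21) and Igfbp4 (0.22). These describe the same 12 arrays, and a small distance does not mean the same calls. Between the days with SKO, Mfsd6 and Fam110c were called lower, as Sostdc1 was, and Itgb4 did not pass (-0.003). Hgf and Tmem26 did not pass there, as Rspo2 did not, and Cxcl12 was called higher (0.72). For SKO at day 4, Fxyd1 was called lower, as Sfrp1 was, and Lpl (-0.13) and Igfbp4 (-0.28) did not pass.

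Markers of some cell types differed with SKO too. Over all genes, 13.4% were called higher and 12.7% lower with SKO at day 8, and 9.52% and 9.4% at day 4. Beside the lower R-spondins, Dkk3, Sfrp1 and Sfrp4, fibroblast and mesenchymal markers were lower with SKO in 10 of 13 at day 8 and 8 of 13 at day 4, where 1 was higher. Their summed level (log2 of the sum of linear values) was 13.66 to 13.89 with SKO at day 8, against 14.91 to 14.98 without, and 13.87 to 14.11 at day 4, against 14.68 to 14.70. No fibroblast marker was under the lower quartile on all arrays. Smooth muscle markers were lower in 6 of 6 at day 8 (10.83 to 11.02 against 12.37 to 12.40) and 5 of 6 at day 4 (11.17 to 11.45 against 12.35 to 12.53). Cartilage and bone markers were lower with SKO in 8 of 8 at day 8 (8.57 to 8.77 against 9.77 to 9.85) and 4 of 8 at day 4, where 1 was higher (8.49 to 8.64 against 9.05 to 9.23). Without SKO, 6 of those 8 were higher at day 8 than at day 4 (4.05% of all genes), beside the rise of Sfrp1, Sfrp2 and Rspo3.

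Beside the higher Sostdc1, epithelial markers were higher with SKO in 10 of 10 at day 8 (10 to 10.72 against 8.13 to 8.35) and 5 of 10 at day 4 (8.77 to 9.05 against 8.15 to 8.21). With SKO, all 10 were higher at day 8 than at day 4 (5.24% of all genes), and Sostdc1 was lower at day 8 than at day 4. Pluripotency markers that were not delivered were higher in 7 of 13 at day 8 (9.24 to 11.54 against 8.11 to 8.22) and 2 of 13 at day 4 (8.29 to 8.52 against 8.01 to 8.29). Endothelial markers were higher in 1 of 8 and lower in 1 of 8 on each day, with median differences of 0.19 at day 8 and -0.05 at day 4. Their summed level, in which the genes with the highest values weigh most, was 9.10 to 9.19 at day 8 against 7.59 to 7.79. At day 4 it was 8.75 to 8.88 against 7.54 to 7.61. Emcn was under the lower quartile on all 12 arrays. Leukocyte markers were lower in 7 of 9 and higher in 2 of 9 at day 8 (8.30 to 8.57 against 8.36 to 8.52), and 2 were lower and 2 higher at day 4 (8.17 to 8.57 against 7.97 to 8.20). Neural and glial markers were higher in 2 of 7 and lower in 2 of 7 at day 8 (8.08 to 8.26 against 8.19 to 8.34), and 1 was higher and 1 lower at day 4 (8.34 to 8.42 against 8.25 to 8.41). The part of these marker shifts in the values of the Wnt modulators was not tested.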

How the data were processed

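Expression was measured on Affymetrix whole-transcript arrays, each loaded with target made from 100 ng of RNA, per the labels' protocols. The authors deposited log2 values, read as log2 from their span of 0.916 to 14.034, for 28853 probe sets on 12 arrays; 0 were missing. The submitters' processing notes name RMA and Partek without versions. RMA equalises array distributions, which hides shifts common to most genes. Neither a build nor a probe mapping is given in the sources read here. A description text repeated on every sample, which names other cells and another day, was not used.

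Probe sets were named by the platform annotation (21789 with 1 gene, 1621 with several, 5443 with none); 21698 Entrez identifiers matched RefSeq of GRCm38.p6 and 0 symbols changed. The probe set with the highest mean was kept per gene. No array copied another, since the closest pair differed by 0.167 per probe set on average.

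Tests used limma 3.58.1 (R 4.3.3) with 8 coefficients (SKO, day, virus, SKO by day, SKO by virus), 4 residual and 4.94 prior degrees of freedom, 13 comparisons, Benjamini-Hochberg adjustment over 19938 genes per comparison. The fit was tested on simulated data. Tables and figures used Python 3.11.15, numpy 2.4.6, pandas 2.3.3 and matplotlib 3.10.9. The members, lists and tests were chosen with earlier results of these data known. Named were all 10 modulators, up to 2 genes with the largest rise and 2 with the largest fall among those called per other Wnt list and comparison, and the 3 nearest genes of the 3 most variable modulators. Alternatives were another variance prior, quantile normalization, equal medians, a filter on means under 5, the mean over probe sets, only the arrays compared, no virus terms and leaving out each array.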

Additional observations from a re-analysis of the deposited data

Results flagged for a closer look

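For 4 of the 10 Wnt modulators, the change between the days differed between the arms by the interaction test, where 2.97% of all genes were called. Sfrp2 changed by 0.49 with SKO and by 2.44 without, a difference of -1.95 (adjusted p = 0.00075), and the direction was the same in 3 of 3 viruses. Sostdc1 changed by -1.0008 with SKO and by 0.38 without (-1.38, adjusted p = 0.029). Rspo3 changed by -0.12 with SKO and by 0.84 without (-0.96, adjusted p = 0.0176). Sfrp1 changed by 1.14 with SKO and by 2.01 without (-0.87, adjusted p = 0.0143). Leaving out 1 array ended the call in 10 of 12 fits for Sostdc1, 8 for Rspo3 and 6 for Sfrp1. Only the Sfrp2 call was kept in all 12.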

How the results depend on the processing

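Of 160 counts of Wnt modulators called under the alternatives other than leaving out an array, 159 stayed within 1.5 times. The exception was the interaction with a mean-variance trend and robust prior, where 1 was called higher (Dkk3, 0.446, adjusted p = 0.0498), against 0. This tally says little about robustness, since many of the counts had little room to move. It includes the cluster comparisons, where 0 modulators were called in the main fit. Each modulator had 1 probe set, so the mean over probe sets left its values unchanged. The filter on means under 5 removed Frzb and Wif1. A change from 3 to 2 was scored as within 1.5 times. Leaving out each array in turn gave 1 to 4 called higher and 0 to 1 lower at day 8 against day 4 with SKO, and 1 to 3 lower for the interaction. With SKO at day 8 against day 4, Sfrp4 was called with that prior (adjusted p = 0.00437) and without genes of mean under 5 (0.0159). The Sfrp2 call there was lost with equal medians (0.0523), without virus terms (0.0945) and with only the arrays compared (0.0724). Those last 2 settings also ended the Frzb call at day 8 (0.0566 and 0.0643), and the second of them the Sfrp1 call at day 4 (0.0781). The cause was not tested.

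Uncalled values near 0 changed sign. Wif1 with SKO at day 8 was 0.062 after quantile normalization. Leaving out each array gave Wif1 values of -0.186 to 0.217 for SKO at day 8, -0.025 to 0.378 at day 4, -0.17 to 0.113 for the days with SKO, -0.016 to 0.387 for the days without, and -0.402 to 0.001 for the interaction. Frzb gave -0.202 to 0.053 for the days without SKO, and Rspo2 -0.23 to 0.064 for the interaction. The SKO calls of Sostdc1, Rspo2, Rspo3, Dkk2, Dkk3, Sfrp2 and Sfrp4 on both days were kept in all 12 such fits.

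The number of all genes called moved more. For SKO at day 8, 5199 became 3145 to 5131 with 1 array left out, and at day 4, 3773 became 2178 to 3730, and 2392 with only the arrays compared. For the days with SKO, 1775 became 2882 with the trend and 655 to 1611 with 1 array left out. Without SKO, 1730 became 2921 with the trend, 2791 without dim genes, 1003 with only the arrays compared and 534 to 1572 with 1 array left out. The interaction's 592 became 1346, 1048 without dim genes and 230 to 306. With SKO, the 4 genes called for cluster C became 14 with the trend, 0 without dim genes and 0 to 18 with 1 array left out. Arrays were matched by virus within the fit, and the setting without virus terms drops that matching. With 4 residual degrees of freedom, only the spread of virus effects between days measures error.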
